A study of Arabidopsis thaliana with 24 samples.

Results

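The effect of phosphate (Pi) withdrawal on root transcripts of Arabidopsis thaliana after 24 h was set against the same effect after 6 h, to separate transient from lasting or growing effects. By their titles, 12 of the study's 24 Affymetrix arrays entered the comparison, 3 each of roots with and without Pi at 6 h and at 24 h. The plants were 30 days old and grew in aerated nutrient solution, with 10 h of light at 21 °C and 14 h of dark at 18 °C. They were rinsed in 0.1 mM EDTA, then moved 1 h after the lights came on to solution with 0 mM Pi (minus Pi roots) or 1.5 mM Pi (plus Pi roots), and about 20 plants were taken per time. The rinse and the move were shared by all groups, and the labels give no ecotype, mutation or transgene. Roots taken after 6 h came from the same day's light period and those taken after 24 h from the hour of the move. Each effect was therefore measured against plus Pi roots of its own time. A Pi effect that changes with the hour of day cannot be told apart here from one that changes with time without Pi. Transient, lasting and growing thus describe only the values at 6 h and 24 h. The experiment was run 3 times, with 1 array per group in each run.

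Plants respond to low Pi with a starvation programme. In Arabidopsis the transcription factor PHR1 drives target genes when Pi is low, and SPX proteins, which bind inositol pyrophosphates, hold it back when Pi is ample. Its targets raise Pi uptake, free Pi with secreted phosphatases and replace membrane phospholipids with sulfolipids and galactolipids. Roots also change their growth, and low Pi alters iron uptake and storage.

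The Pi effect at a time is the log2 value in minus Pi roots less that in plus Pi roots. The difference of the Pi effects, at 24 h less at 6 h, is the mean of the 3 differences within the experiments. It was tested with limma in a fit of all 24 arrays with the experiment as a block, over 22746 probe sets. A probe set is called where the Benjamini-Hochberg adjusted p is under 0.05. A probe set is a group of probes read together, and 17103 of them named 1 gene. The difference shares its arrays with both effects, so the 3 values of a gene are given side by side and are not independent of each other. Since whole roots were measured, fewer cells of a type and less RNA per cell cannot be told apart.

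The Pi effect was broader at 6 h than at 24 h. At 6 h 5117 probe sets (22.5%) were called, 2125 higher (9.34%) and 2992 lower (13.2%) without Pi, and at 24 h 911 (4.01%), 390 higher and 521 lower. At 2-fold or more these counts were 786 and 290. Within each experiment, more probe sets were 2-fold apart at 6 h than at 24 h, with 1478 against 641 in experiment 1, 1312 against 1011 in experiment 2 and 1028 against 556 in experiment 3. Over all probe sets the median size of the effect was 0.164 at 6 h and 0.116 at 24 h on the log2 scale. At 0 h limma called 0 probe sets, and 920 had an unadjusted p under 0.05.

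The effects themselves differed between the times in 735 probe sets (3.23%). The effect was higher at 24 h in 430 (1.89%) and lower in 305 (1.34%), 223 of them by 2-fold or more (96 higher, 127 lower). Of the 735, 733 had the same sign of the difference in 3 of 3 experiments. The calls rest on the mean of these 3 differences, so this agreement is largely set by the calls. In 703 of the 735 the minus Pi arm changed more between the times than the plus Pi arm. The minus Pi arm also changed more in 13951 of the 21538 probe sets outside the classes given below. Without the experiment as a block 59 were called, 8 higher and 51 lower, all of them among the 735. A test of the 3 within-experiment differences alone called 55, of which 36 were among the 735, and a fit of only the 12 arrays called 57, of which 53 were. The count was 16 without experiment 2, 45 without experiment 1 and 591 without experiment 3.

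Most called differences were effects that had become smaller in size. In 657 probe sets, 498 of them naming 1 gene, the effect was called at 6 h and smaller at 24 h, with a median size of 0.757 at 6 h and 0.136 at 24 h, and 20 of the 657 were still called at 24 h. In 280 of these the effect at 6 h was a rise without Pi and in 377 a fall. At 24 h 416 of the 657 effects were positive and 241 negative. Some of them thus had the other sign at 24 h, where they were not called. Growing effects, called and larger in size at 24 h, numbered 50, of which 41 were rises and 9 falls at 24 h. At 6 h 29 of the 50 effects were positive and 21 negative. Some thus had the other sign at 6 h, where they were not called. In 9 probe sets the effect was called at both times with opposite signs. The remaining 19 met none of these rules and were not called at 24 h. Effects called at both times with the same sign, no called difference and a 95% interval of the difference within 2-fold numbered 334 (1.47%), 115 rises and 219 falls, and are here called lasting. A further 139 were called at both times with an interval that reached beyond 2-fold, and whether their effects differed is undecided. These classes were cut from the arrays they describe, so their medians are descriptions.

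**Figure D1:**
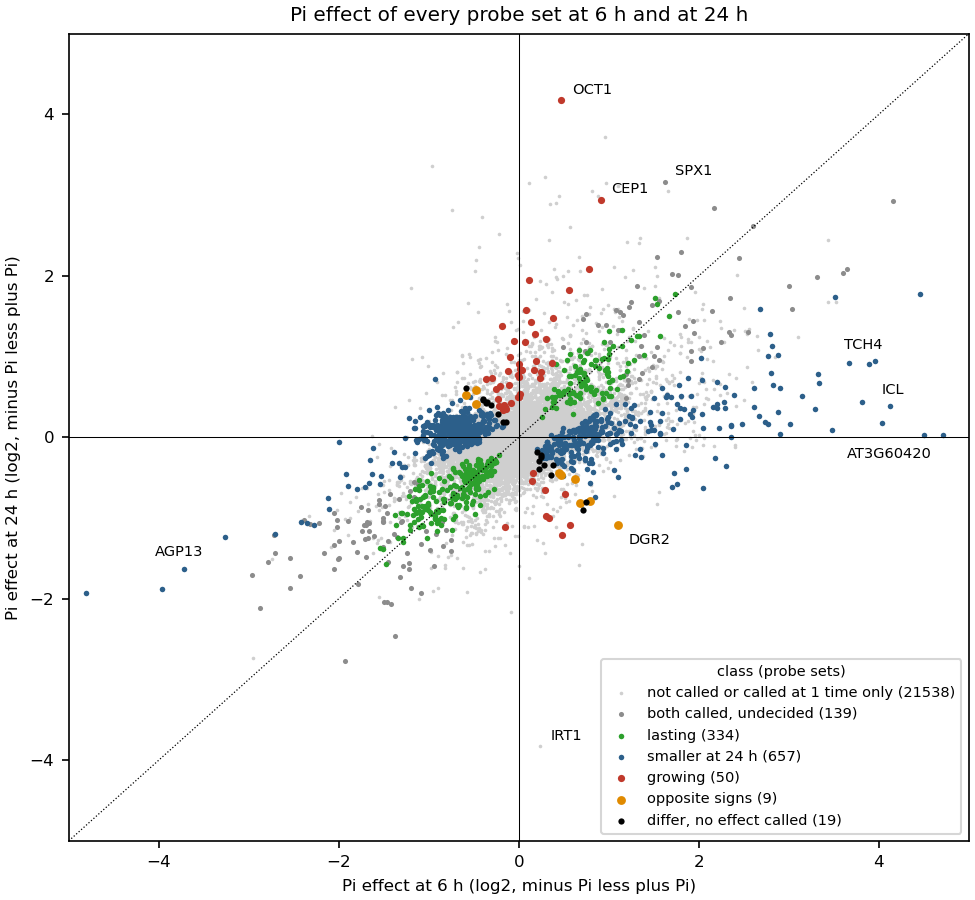
Pi effect of each of 22746 probe sets at 6 h (x axis) and at 24 h (y axis), both as log2 of minus Pi less plus Pi from the limma fit. Points on the dotted line have equal effects at both times. The 657 effects that were smaller at 24 h lie along the horizontal line, the 334 lasting effects along the dotted line, and OCT1 stands at 0.47 at 6 h and 4.18 at 24 h.

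The arrays were alike in scale and root-like in their markers. Log2 medians per array were 6.345 to 6.454, and replicate arrays at 6 and 24 h correlated with r between 0.9562 and 0.992. Of 6 root hair and 5 xylem markers, 5 and 4 had a probe set naming only that gene. In plus Pi roots the 5 root hair markers stood on average at percentile 79.6 of the array at 6 h and 80 at 24 h, and in minus Pi roots at 68.7 and 68.4. The xylem markers stood at percentile 58.4 to 68.1, and none of the 5 endodermis markers was measured under a name. Of 22 shoot photosynthesis genes, which would mark leaf tissue, 8 were measured and stood at percentile 34 to 40.1. Their log2 median per array was 4.97 to 6.36 in plus Pi roots at 6 h and at most 5.64 in the other groups. The part of these shifts in the results was not tested.

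The largest growing effect was that of OCT1. OCT1 (AT1G73220) encodes an organic cation and carnitine transporter. It had values of 4.75, 4.03 and 4.26 in plus Pi and 5.54, 4.54 and 4.37 in minus Pi roots at 6 h, in the order of experiments 1 to 3. At 24 h the values were 5.31, 5.13 and 5.11 with Pi and 10.16, 9.21 and 8.72 without. Both arms overlapped at 6 h, while at 24 h all minus Pi arrays lay far above all plus Pi arrays. Its Pi effect was 0.47 (SE 0.543) at 6 h and 4.18 (SE 0.543), or 18.1-fold, at 24 h. The difference was 3.71 (SE 0.768, limma adjusted p = 0.0185), and its call was lost without the plus Pi array at 6 h or the minus Pi array at 24 h of experiment 1, or the plus Pi array at 24 h of experiment 2.

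SPX1, the Pi sensor gene that feeds back on PHR1, was called at both times, and its difference did not pass the test. With Pi it stood at 7.0, 6.41 and 5.89 at 6 h and at 7.03, 6.87 and 6.66 at 24 h. Without Pi it stood at 8.31, 7.94 and 7.93 at 6 h and at 10.13, 9.90 and 10.02 at 24 h. Minus Pi arrays were above all plus Pi arrays at both times, and those at 24 h were the highest. The Pi effect was 1.63 (SE 0.340) at 6 h and 3.17 (SE 0.340) at 24 h, and the difference of 1.54 (SE 0.481, 0.53 to 2.56 as its 95% interval) had a limma adjusted p = 0.0908. By experiment it was 1.80, 1.50 and 1.33. It was called with only the 12 arrays, on the 3 differences alone, without experiment 3 and without the plus Pi array at 6 h of experiment 3 (lowest adjusted p = 0.0364).

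Of 17 measured genes of Pi signalling and transport, 1 had a called higher effect at 24 h (OCT1) and 1 a called lower effect. The latter was WRKY6, a transcription factor gene that acts on PHO1 in Arabidopsis, with a Pi effect of 1.63 at 6 h and 0.50 at 24 h (difference -1.13, SE 0.286, limma adjusted p = 0.0408). That call was lost without 10 of the 12 single arrays. Over all probe sets 1.89% had a called higher and 1.34% a called lower effect at 24 h than at 6 h. The median difference of the list was -0.18, beside 0.0167 over all probe sets, and lay between -0.30 and -0.11 with single arrays left out (plus Pi at 24 h of experiments 1 and 2). PHR1 itself had an effect of 0.46 at 6 h, which was called, and 0.01 at 24 h (difference -0.45, adjusted p = 0.0700). LPR1, a ferroxidase gene of local Pi sensing in the root tip, was called at both times, with 1.33 at 6 h and 0.72 at 24 h. The Pi transporter gene PHT1;3 had -0.05 at 6 h and 0.77 at 24 h, and G3Pp1, a glycerol-3-phosphate permease gene, 1.06 and 2.10. Each of the last 2 was called at 24 h only, and neither difference was called.

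Among 6 measured genes of the scavenging list, which holds acid phosphatases and nucleases, AT1G13750 had a called difference, and the list median was 0.11 (0.07 without the plus Pi and 0.17 without the minus Pi array at 24 h of experiments 2 and 1). It stood at 7.38, 7.05 and 7.53 with Pi and 7.40, 7.07 and 6.86 without at 6 h, against 7.42, 7.04 and 7.36 with and 8.09, 7.85 and 7.78 without at 24 h. Minus Pi arrays were all above plus Pi arrays at 24 h and overlapped them at 6 h. The effect went from -0.21 to 0.63, a difference of 0.84 (SE 0.174, limma adjusted p = 0.0185). Of the same list PAP22 was called at 24 h, at 1.00, with a difference of 0.63 that was not. The ribonuclease gene RNS2 and the acid phosphatase gene PAP26 had differences of 0.21 and 0.00.

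Membrane lipid genes had both directions among 7 measured members, with a median difference of 0.28. Without the minus Pi array at 24 h of experiment 1 it was 0.14, without the plus Pi array at 6 h of experiment 2 0.18, and without the minus Pi array at 6 h of experiment 3 0.45. In experiments 1 to 3 the list median was 0.74, 0.14 and -0.28, so its sign was not the same in all of them. SQD1, which encodes the UDP-sulfoquinovose synthase of sulfolipid synthesis, stood at 7.63, 7.53 and 7.41 with Pi and 7.85, 7.47 and 7.81 without at 6 h. At 24 h it stood at 7.36, 7.69 and 7.44 with Pi and 8.69, 8.37 and 8.24 without, when the arms no longer overlapped. The Pi effect was 0.19 at 6 h and 0.94, or 1.92-fold, at 24 h (difference 0.75, SE 0.169, limma adjusted p = 0.0261). SQD2, the next enzyme of that pathway, differed by 0.68 (adjusted p = 0.0887). PAH2, a phosphatidate phosphatase gene, went from 0.54 to 0.02, a called difference of -0.52 that was lost without 9 of the 12 single arrays. None of OCT1, AT1G13750 and SQD1 was called without the 2 minus Pi arrays of experiment 2, whose array numbers lie outside the run of the others.

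Further growing rises were of wall genes, a protease gene and genes known by locus only. CEP1, a cysteine endopeptidase gene linked to programmed cell death, stood at 4.36, 5.06 and 4.41 with Pi and 5.18, 5.32 and 6.06 without at 6 h, against 4.27, 4.87 and 5.77 with and 7.87, 8.07 and 7.80 without at 24 h. The minus Pi arrays were above the plus Pi arrays at both times, by 0.91 at 6 h and 2.94 at 24 h (difference 2.04, SE 0.356, limma adjusted p = 0.00776). In experiment 3 the difference was 0.39, against 2.77 and 2.94 in the other two, with the highest plus Pi value at 24 h in that run. AT2G04460, annotated as a pseudogene, had an effect of 0.11 at 6 h and 1.95 at 24 h (difference 1.84, SE 0.306, adjusted p = 0.00607), and AT5G20790 of 0.08 and 1.57. The expansin-like gene EXLB1 went from 0.78 to 2.08. Its level fell by 1.17 between the times in plus Pi roots and went up by 0.13 in minus Pi roots. AT5G64110 went from 0.38 to 1.48 (difference 1.10, SE 0.158, adjusted p = 0.00225) and the laccase gene LAC12 from -0.36 to 0.73. GASA14 (AT5G14920) went from -0.30 to 0.73, and here too the plus Pi arm made up most of the difference, with -0.95 between the times against 0.08 in minus Pi roots. AT5G45670 and AT1G75900 differed by 1.30 and 1.10.

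Growing falls were smaller, and 6 of them were named by 1 gene. AT4G30670 stood at 10.92, 11.32 and 10.85 with Pi and 11.56, 11.27 and 11.72 without at 6 h, and at 10.67, 11.19 and 10.39 with and 9.87, 9.20 and 9.56 without at 24 h. Both arms overlapped at 6 h, and at 24 h minus Pi roots were lower on all arrays. Its effect went from 0.49 to -1.21 (difference -1.69, SE 0.385, limma adjusted p = 0.0274). The remaining 5 were AT2G34910, AT5G45840, AT2G30990, AT5G11230 and AT4G28890, with differences between -1.28 and -0.60 and effects at 24 h between -1.11 and -0.44.

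Transient rises held the largest called differences among the named genes. AT3G60420, AT2G41380 and ICL had Pi effects of 4.71, 4.50 and 4.12 at 6 h and of 0.03, 0.03 and 0.38 at 24 h. ICL encodes isocitrate lyase, an enzyme of the glyoxylate cycle. It stood at 4.43, 4.86 and 4.90 with Pi and 8.87, 8.55 and 9.14 without at 6 h, against 4.58, 4.86 and 5.10 with and 4.86, 5.47 and 5.34 without at 24 h. Of the 12 arrays, the 3 of minus Pi roots at 6 h were high. The effect was 17.4-fold at 6 h and 1.30-fold at 24 h, a difference of -3.74 (SE 0.247, limma adjusted p = 1.94e-07). AT2G41380 stood at 8.69, 9.24 and 9.25 without Pi at 6 h and between 4.10 and 4.72 on the other 9 arrays (difference -4.47, SE 0.264, adjusted p = 4.81e-08). ICL and AT2G41380 were called in each of 24 alternatives, which left out single array, each experiment and the block in turn, among others.

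AT3G60420 stood at 11.30, 9.69 and 9.21 without Pi at 6 h and at 4.81, 5.30 and 5.25 at 24 h, with plus Pi values of 5.20, 4.98 and 5.87, then 4.21, 4.92 and 6.14. The difference was -4.69 (SE 0.718, limma adjusted p = 0.00321). TCH4, a touch-inducible xyloglucan endotransglucosylase/hydrolase gene, stood at 10.98, 9.78 and 9.91 without Pi against 7.46, 6.01 and 5.53 with Pi at 6 h. At 24 h it stood at 6.47, 6.40 and 6.89 against 5.24, 5.63 and 6.17. Minus Pi arrays were above plus Pi arrays at both times, by 3.89 and 0.91, of which only the first was called (difference -2.98, SE 0.562, adjusted p = 0.0120). At 0 h, right after the move, its mean was 9.94 with Pi and 10.40 without. AT1G15330 went from 2.30 to -0.35, AT1G51830 from 2.04 to -0.63, AT5G66780 from 2.90 to 0.04 and VQ29 (AT4G37710) from 2.77 to 0.16.

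Other named genes of this kind were PGIP1, NIT4, GSTU25 and LCR67. PGIP1, which encodes an inhibitor of fungal pectin-degrading enzymes, had effects of 4.46 at 6 h and 1.78 at 24 h, both called (difference -2.68, SE 0.645, limma adjusted p = 0.0332). The nitrilase gene NIT4 went from 3.67 to 0.93, the glutathione transferase gene GSTU25 from 3.34 to 0.67 and the defensin gene LCR67 from 3.96 to 0.95. LCR67 stood at 5.72, 7.44 and 10.19 without Pi at 6 h, so the runs differed widely, and its difference was -1.70, -2.46 and -4.87 by experiment. The differences of NIT4, GSTU25 and LCR67 had adjusted p = 0.0303, 0.0316 and 0.0426, and the calls of these 3 and of PGIP1 were lost without at least 8 of the 12 single arrays and without the block.

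**Figure D2:**
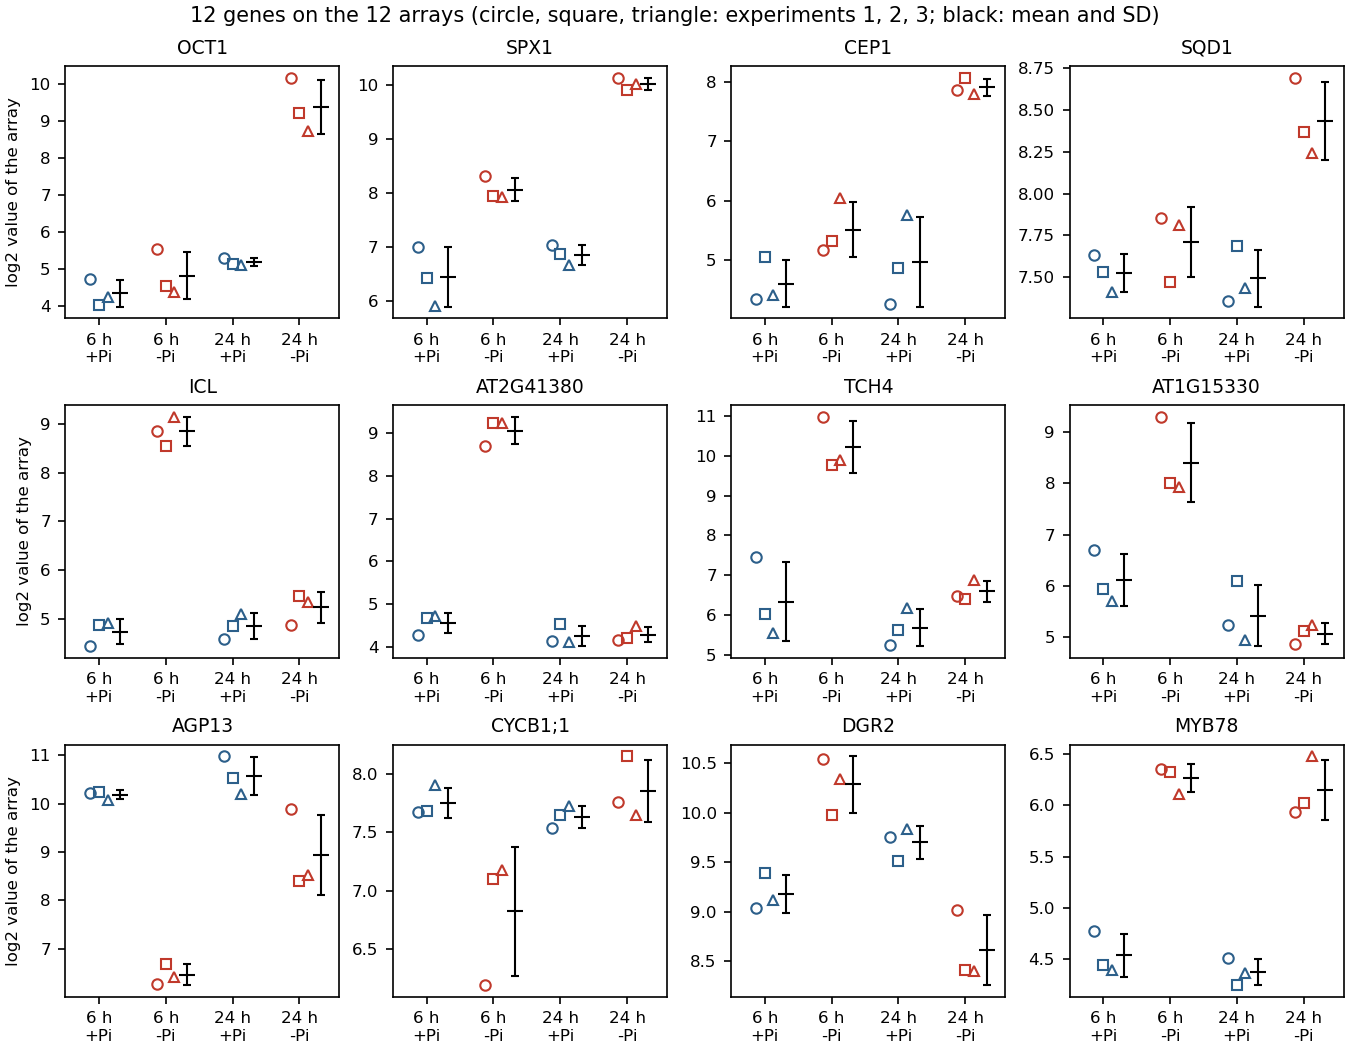
Log2 values of 12 genes on the 12 arrays, by time and Pi supply, with circles, squares and triangles for experiments 1, 2 and 3, blue for plus Pi, red for minus Pi, and the mean and SD (n = 3) in black beside each group. The y axes differ between genes. OCT1 is high on the 3 minus Pi arrays at 24 h alone (8.72 to 10.16), ICL and AT2G41380 on those at 6 h alone, and MYB78 on both.

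Among the 377 falls that were smaller at 24 h were AGP13, AGP22 and XTH21. AGP13, an arabinogalactan protein gene, stood at 10.22, 10.24 and 10.08 with Pi and 6.26, 6.69 and 6.42 without at 6 h, against 10.98, 10.53 and 10.19 with and 9.88, 8.41 and 8.51 without at 24 h. Minus Pi arrays were lower at both times, by 13.2-fold at 6 h and 3.10-fold at 24 h. Its effect went from -3.72 to -1.63 (difference 2.09, SE 0.395, limma adjusted p = 0.0122). AGP22 stood at 11.92, 11.65 and 11.49 with Pi and 8.04, 8.88 and 8.35 without at 6 h. At 24 h it stood at 12.04, 11.64 and 11.21 with and 11.24, 10.14 and 9.81 without, when its arms overlapped. Its effect went from -3.26 to -1.24 (difference 2.03, SE 0.359, adjusted p = 0.00826). The effects of AGP13 and AGP22 at 24 h were still called (limma adjusted p = 0.00443 and 0.0122). The xyloglucan enzyme gene XTH21 went from -2.71 to -1.20 (difference 1.51, SE 0.402, adjusted p = 0.0495), at 2.6, 1.00 and 0.93 by experiment.

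In ATLP-1, a thaumatin-like gene, and AT1G73620 the effects at 6 h were -0.93 and -1.99 and those at 24 h 0.72 and -0.05. The differences were 1.65 (SE 0.286, limma adjusted p = 0.00727) and 1.94 (SE 0.392, adjusted p = 0.0174). For ATLP-1 the minus Pi arrays were all below the plus Pi arrays at 6 h and all above them at 24 h. The defensin gene PDF2.5 went from -1.62 to -0.13, AT3G03130 from -1.22 to 0.25, and AT1G09750 from -3.96 to -1.88, which was still called.

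**Figure D3:**
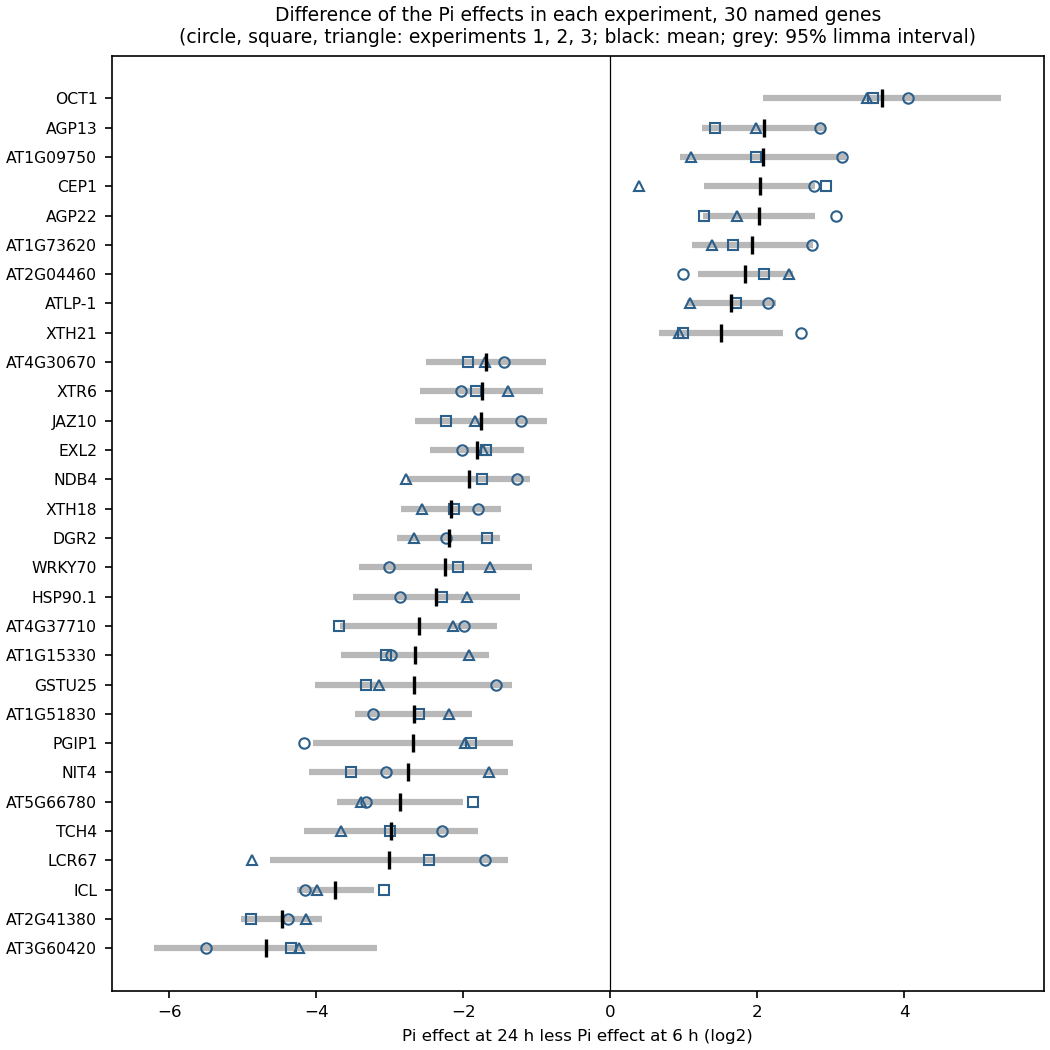
Pi effect at 24 h less that at 6 h (log2) in each experiment for the 30 named genes of the smaller, growing and opposite classes with the largest differences, with the mean in black and the 95% limma interval in grey. All 30 had the same sign in 3 of 3 experiments, 21 negative and 9 positive. The selection used the means shown, and the largest called differences were named only where all experiments had the same sign. Agreement of signs in the plot is therefore partly set by the selection.

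Opposite signs at both times were called in 9 probe sets, 6 of which named 1 gene. DGR2, which encodes a cell wall protein with a DUF642 domain, stood at 9.03, 9.39 and 9.11 with Pi and 10.54, 9.97 and 10.35 without at 6 h. At 24 h the order was turned, with 9.75, 9.51 and 9.84 with Pi and 9.02, 8.41 and 8.40 without. Its effect was 1.11 at 6 h and -1.09 at 24 h (difference -2.20, SE 0.333, limma adjusted p = 0.00301), and arms overlapped at neither time. AT5G50180, ATMDAR2 and SAUR21 also went from higher to lower, by 0.62, 0.46 and 0.45 at 6 h and by -0.52, -0.47 and -0.45 at 24 h. ATMDAR2 encodes a monodehydroascorbate reductase, an enzyme of ascorbate recycling. VTC4, which encodes the L-galactose-1-phosphate phosphatase of ascorbate synthesis, went the other way, from -0.58 to 0.53 (difference 1.11, SE 0.179, adjusted p = 0.00463), and AT1G22170 from -0.47 to 0.59. For VTC4 the arms overlapped at both times, and the sign held within each experiment.

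Lasting rises included genes of transcription factors and of proteolysis. MYB78 stood at 4.77, 4.44 and 4.39 with Pi and 6.36, 6.33 and 6.11 without at 6 h, and at 4.51, 4.25 and 4.36 with and 5.93, 6.03 and 6.48 without at 24 h. All minus Pi arrays were higher at both times, by 1.73 and 1.78 (difference 0.04, 95% interval -0.59 to 0.67). The homeobox gene HB53 had effects of 1.53 and 1.65, WRKY28 of 1.51 and 1.72 and CEJ1, a DREB-type factor gene, of 1.31 and 1.26. NANA, an aspartic protease gene, had effects of 1.67 and 1.50 (difference -0.17, 95% interval -0.61 to 0.27), and CYSA, a cysteine protease inhibitor gene, of 1.56 and 1.26.

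Lasting falls were led by AT1G33900, with effects of -1.54 at 6 h and -1.37 at 24 h. Its minus Pi values of 5.10, 4.99 and 5.31 at 6 h and 5.67, 5.31 and 5.41 at 24 h were below all plus Pi values, of 6.52 to 6.93 and of 6.59 to 7.09. The others named were AT5G51470 (-1.34 and -1.25), the glutathione transferase gene ATGSTF13 (-1.28 and -1.25), AT5G24100 (-1.37 and -1.08), AT4G20450 (-1.21 and -1.15) and the ACC oxidase gene ACO5 (AT1G77330, -1.37 and -0.96), whose product makes ethylene. The 334 lasting effects fell to 20 without the experiment as a block and to 145 with the interval held within 1.5-fold.

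Gene lists were described by their counts, since members were chosen with earlier results of these data known. They held 592 genes in 27 lists, of which 312 were measured by a probe set naming only that gene. Over all probe sets, beside which each list count stands, 1.89% had a called higher and 1.34% a called lower difference. At 6 h 9.34% of all probe sets were called higher and 13.2% lower. In the sugar starvation and carbon salvage list all 18 measured genes had a lower effect at 24 h than at 6 h by sign. The median effect was 1.21 at 6 h and 0.35 at 24 h, and the median difference was -0.96. Without the plus Pi array at 6 h of experiment 1 that median was -1.66, and without the minus Pi arrays of experiment 1 at 6 h and at 24 h and the plus Pi array at 6 h of experiment 3 it was -0.61, -0.47 and -0.44. Called were 3, all lower, beside 1.34% of all probe sets: ICL, EXL2, whose effect went from 1.59 to -0.22, and the glutamate dehydrogenase gene GDH1, from 1.06 to -0.41. Without the block 1 was called. ASN1, which encodes a sugar-repressed asparagine synthetase, had effects of 3.44 and 2.45 and PPDK, pyruvate phosphate dikinase, of 3.43 and 1.67, and neither difference was called (limma adjusted p = 0.712 and 0.377). In experiment 1 ASN1 already stood at 9.70 with Pi at 6 h, against 7.81 and 6.67 in the other runs. Autophagy genes had a median difference of -0.23, with 15 of 16 negative by sign and 0 called, and 9 of the 16 were called higher at 6 h, beside 9.34% of all probe sets. ATG8D was lasting, with effects of 0.74 and 0.64.

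Glycolytic bypass and respiration genes differed in both directions, with a median difference of -0.08 that lay between -0.13 and -0.00 with single arrays left out. Of 10 measured, 3 had a called lower effect at 24 h: the alternative NADH dehydrogenase genes NDB4, from 2.29 to 0.37, and NDB2, from 1.23 to 0.26, and AT2G21640, from 1.46 to 0.19. AT1G20950 had a called higher effect, from -0.86 to -0.15. AT1G76550 was lasting, with -0.53 and -0.42. Of these 4 calls only that of AT2G21640 was kept without the block (difference -1.27, SE 0.242, limma adjusted p = 0.0123).

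Arabinogalactan proteins coat the cell surface. Of 13 measured genes, 11 were called lower at 6 h, beside 13.2% of all probe sets, with a median effect of -1.22, against -0.73 at 24 h. The difference was positive in 12 of 13, with a median of 0.63, and called in 5, all higher, beside 1.89% of all probe sets. These were AGP13, AGP22, AGP4 (from -2.36 to -1.07), FLA1 (from -1.41 to -0.32) and AGP18 (from -0.96 to -0.09). FLA2 and FLA8 were lasting, with -1.22 and -0.73 and with -1.12 and -0.85. The list median was 1.15, 0.73 and 0.37 in experiments 1 to 3, and without the block 0 of the 5 were called.

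Of 9 measured cell division genes, 7 were called lower at 6 h, beside 13.2% of all probe sets, and 0 at 24 h, with median effects of -0.66 and 0.15. All 9 differences were positive, with a median of 0.81, and 5 were called higher, beside 1.89%. The mitotic cyclin gene CYCB1;1 stood at 7.68, 7.68 and 7.91 with Pi and 6.19, 7.10 and 7.18 without at 6 h, against 7.54, 7.65 and 7.72 with and 7.76, 8.16 and 7.65 without at 24 h. Minus Pi arrays were lower at 6 h, most in experiment 1, and the arms overlapped at 24 h (difference 1.15, SE 0.285, limma adjusted p = 0.0367). The others were CYCA1;1 (0.89), the Aurora kinase genes AUR1 (0.81) and AUR2 (1.02) and PLE (1.07, SE 0.183, adjusted p = 0.00727), a microtubule-associated protein gene of cytokinesis. Without the block 0 of the 5 were called, and 2 when the out-of-run arrays were left out. The list median was 1.09, 0.72 and 0.65 by experiment.

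Of 9 tubulin genes 8 were called lower at 6 h, beside 13.2% of all probe sets, and TUB7 had a called higher effect at 24 h (from -0.59 to 0.05). The median difference of the list was 0.30, and 0.19 and 0.20 without the minus Pi arrays of experiment 1 at 6 h and at 24 h. By experiment it was 0.64, 0.34 and -0.10. TUB1 went from -2.72 to -1.21, a difference of 1.50 with a limma adjusted p = 0.0762, which was called without the minus Pi array at 6 h of experiment 3 (0.0171). TUB5 and TUB8 were lasting, with -1.25 and -0.95 and with -1.01 and -0.81. XTH enzymes cut and rejoin the xyloglucan of cell walls. Of 22 XTH genes 1 had a called higher effect (XTH21) and 3 a called lower one, beside 1.89% and 1.34% of all probe sets. Their median difference was -0.18, and 0.01 without the out-of-run arrays. With single arrays left out it lay between -0.34 (minus Pi at 6 h of experiment 1) and 0.06 (minus Pi at 24 h of experiment 2). The 3 were TCH4, XTR6 (XTH23), from 2.04 to 0.29, and XTH18, from 1.72 to -0.44. XTH18 stood at 9.0, 9.06 and 9.21 without Pi at 6 h, above its plus Pi values of 7.33 to 7.43, and at 24 h at 7.76, 7.41 and 7.47, below those of 7.82 to 8.15 (difference -2.16, SE 0.324, adjusted p = 0.00289). Of the 4 calls, those of TCH4 and XTH18 were kept without the block. None of 10 expansin genes had a called difference (median 0.24). At 6 h 5 were called lower, beside 13.2% of all probe sets, EXPA14 most (-2.02, and -1.02 at 24 h).

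Root hair genes, at a median effect of -0.36 at 6 h and -0.57 at 24 h, had a median difference of 0.01, between -0.14 and 0.06 with single arrays left out. Of 14, the proton pump gene HA7 alone was called, with an effect of 1.09 at 6 h and 0.05 at 24 h, a call lost without 10 of the 12 single arrays. Xylem secondary wall genes had a median effect of -0.16 at 6 h and -0.61 at 24 h, with all 13 differences negative by sign and 0 called. Their median was -0.44, and -0.20 without the plus Pi array at 6 h of experiment 3. Of them IRX15-L, a xylan gene, and FLA12 were lasting, with effects of -0.76 and -0.81 and of -0.76 and -0.82. Suberin and Casparian strip genes had 0 called differences among 13. Their median was 0.46, and without the minus Pi arrays at 6 h of experiments 1 and 2 and at 24 h of experiment 2 it was 0.13, 0.92 and 0.19. CER4, a fatty acyl reductase gene, was lower at both times, by -2.17 and -1.44, and its difference of 0.73 was undecided (limma adjusted p = 0.201).

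**Figure D4:**
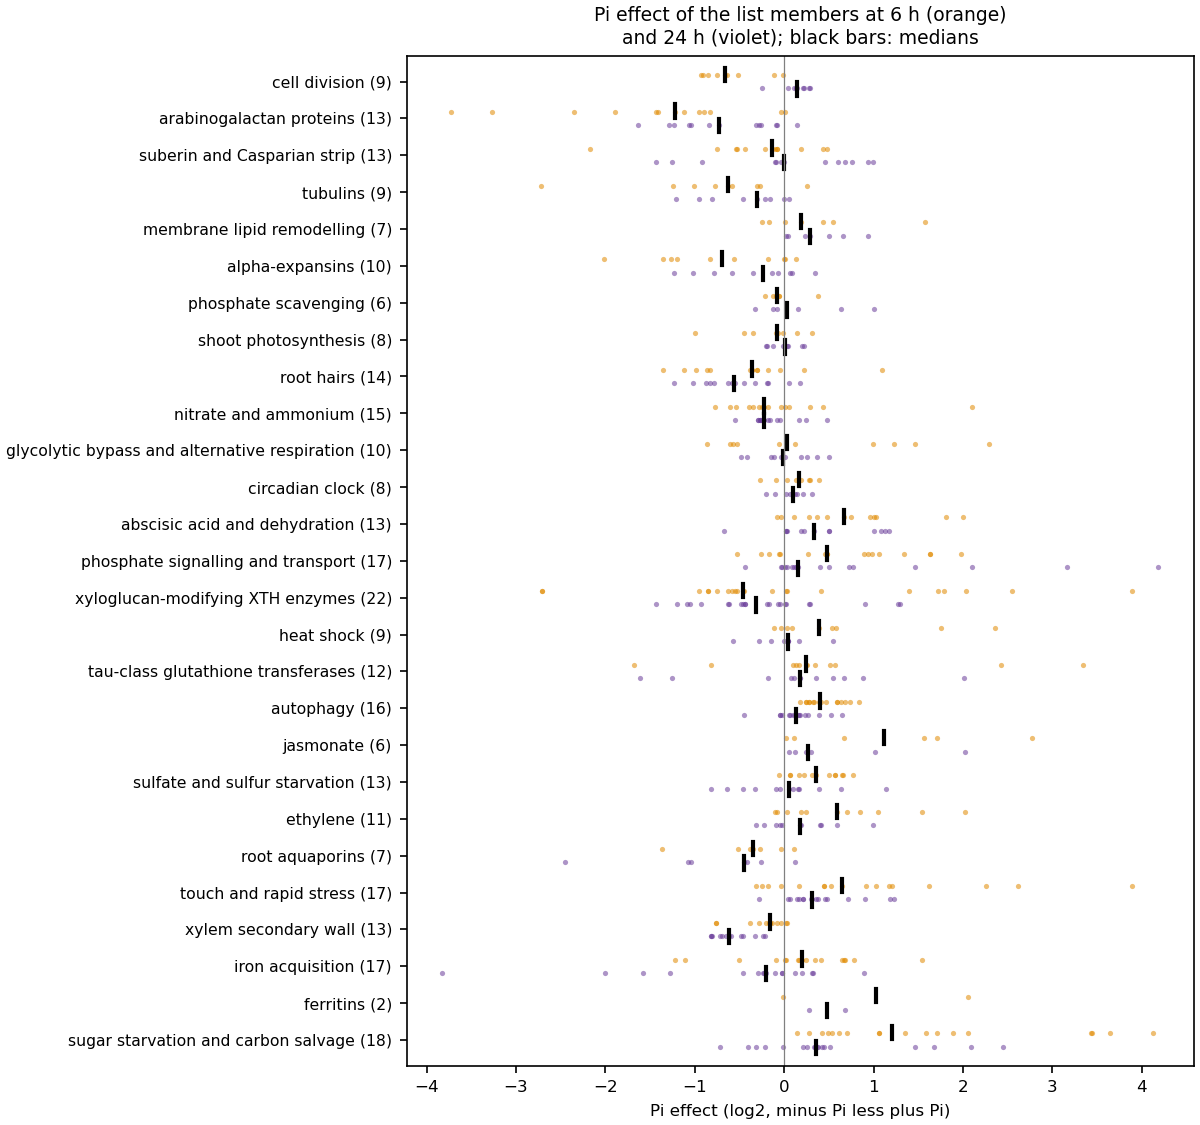
Pi effect (log2, minus Pi less plus Pi) of the measured members of 27 gene lists at 6 h (orange) and at 24 h (violet), with the list medians as black bars and the number of measured members in brackets, ordered by the median difference. The cell division medians are -0.66 and 0.15, and those of sugar starvation 1.21 and 0.35.

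Of 17 iron acquisition genes 14 differences were negative by sign. The median was -0.46, and without the plus Pi and minus Pi arrays at 6 h and the plus Pi array at 24 h of experiment 2 it was -0.30, -0.24 and -0.25. The 1 call was higher, BGLU42, from -0.50 to -0.03, and was kept in 5 of 24 alternatives. Without the plus Pi array at 6 h of experiment 3, or without that experiment, 2 were called lower, IRT1 among them. IRT1, the main iron uptake transporter of the root, stood at 4.92, 4.88 and 8.82 with Pi and 4.70, 7.69 and 6.96 without at 6 h. At 24 h it stood at 6.78, 8.15 and 7.79 with Pi and 3.55, 4.03 and 3.67 without. The arms overlapped widely at 6 h and were apart at 24 h. Its difference was -4.06 (SE 1.20, limma adjusted p = 0.0742, lowest in the alternatives 0.0247), with -3.00, -6.92 and -2.26 by experiment. FER1, a ferritin gene, stood at 12.28, 12.30 and 12.56 without Pi and 10.17, 10.79 and 10.00 with Pi at 6 h, and overlapped at 24 h, with 10.96, 10.78 and 11.07 against 10.54, 10.89 and 9.33. The effect was 2.06 at 6 h and 0.68 at 24 h (difference -1.38, SE 0.393, adjusted p = 0.0658), and the difference was called without experiment 3 and without either of its arrays at 24 h (lowest 0.0128).

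Stress and hormone lists had smaller median effects at 24 h. Of 17 touch and rapid stress genes 2 had a called lower effect, beside 1.34% of all probe sets: TCH4 and WRKY70 (from 2.62 to 0.38). The list's median effect was 0.64 at 6 h and 0.31 at 24 h. Its median difference was -0.44, and -0.05 without the plus Pi array at 24 h of experiment 3, -0.25 without the minus Pi array at 24 h of experiment 1 and -0.27 without that at 6 h of experiment 2. HSP90.1, at 2.36 and close to 0, was 1 of 9 heat shock genes called, and the medians were 0.39 and 0.04. Among 11 ethylene genes all differences were negative by sign (median -0.40, or -0.24 without the minus Pi array at 24 h of experiment 1), and CTR1, a kinase gene that holds ethylene signalling back, was called, from 0.71 to 0.17 (difference -0.53, SE 0.127, limma adjusted p = 0.0323). Jasmonate genes had median effects of 1.12 and 0.27, but their differences were split, with 3 positive, 3 negative and a median of -0.26. Of 6 measured, JAZ10, a repressor gene of jasmonate signalling, went from 2.77 to 1.01 and AOS, the allene oxide synthase gene, from 0.67 to 0.12, both called. AOS, at a difference of -0.55 and an adjusted p = 0.04995, was the last named gene inside the threshold. None of WRKY70, HSP90.1, CTR1, JAZ10 and AOS was called without the block.

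Of the 99 genes named by the rule, 69 had a called difference. Of these, 58 were called with the experiment as a random block and 13 without any block: OCT1, AT2G04460, ATLP-1, ICL, AT2G41380, AT3G60420, TCH4, XTH18, AT1G15330, AT5G66780, AT2G21640, DGR2 and AT5G50180. With each of the 12 arrays left out in turn 26 were called throughout, and with each experiment left out 2 were, ICL and AT2G41380. None of the 69 changed the sign of its difference in any of the 24 alternatives, several of which leave the difference as it is.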

How the data were processed

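Per the labels, root RNA of 8 groups, 3 samples each, went to 24 Affymetrix arrays of 1 colour. The authors' deposited value table holds log2 values per array. The sources used here do not give how probes were summarised or arrays normalized, and limma is named in the submitters' processing notes with no version. The authors' deposited comparison table has log2 fold changes, test statistics (a score) and p-values, and its log2 fold changes equal differences of group means within 1e-06. It was otherwise used only for its locus column. The files used here hold no detection calls or counts, so the number of arrays limits the precision.

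Of 22810 probe sets 64 controls were left out. Genes came from that locus column (9395) or the platform annotation (7708). Another 672 probe sets named several genes and 4971 were unnamed here. Symbols are RefSeq's for TAIR10.1. Promoter sequences were not analysed here.

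The software was limma 3.58.1 and statmod 1.5.0 under R 4.3.3. Group means and the experiment number as a fixed block were fitted to all 24 arrays (14 residual degrees of freedom), with empirical Bayes moderation and Benjamini-Hochberg adjustment over 22746 probe sets at 0.05. The block has no effect on the difference itself, only on its error (median SE 0.160, or 0.217 without it). The labels give each experiment number to a whole run. Arrays' deviations from their group means had a mean correlation of 0.554 within an experiment (lowest 0.0984) and -0.261 between experiments, and 22 of 24 arrays correlated best with their own experiment. No 2 arrays were identical (0 identical pairs). The labels do not say more of how separate the runs were. By exact permutation 3 arrays against 3 cannot reach the threshold.

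Named genes were the 12 largest called differences in each direction, of the same sign in all experiments, and the 10 largest growing effects. Added were the 6 largest lasting and opposite effects in each direction. Up to 4 called and 2 lasting members per list and 15 markers were also named. The members and lists were chosen with earlier results of these data known. A list gene was represented by its brightest probe set. On simulated data with 22746 probe sets the fit called 75 of 100 differences of 1 (log2) and 98 of 100 of 2, with 6 false calls. The noise in these data was independent between arrays and equal in size on all arrays of a probe set. Recovery and false calls under unequal or shared noise were not tested. Alternatives changed the block, the arrays in the fit, scaling, a filter on dim probe sets, moderation and single arrays.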

Additional observations from a re-analysis of the deposited data

Results flagged for a closer look

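The 735 probe sets whose Pi effect differed between 24 h and 6 h were marked because the difference itself passed limma's test. Among named genes, 6 were marked for effects that were called at both times with opposite signs. The effect of DGR2 differed by -2.20, that of AT5G50180 by -1.14, that of ATMDAR2 by -0.93 and that of SAUR21 by -0.90, each higher without Pi at 6 h and lower at 24 h. VTC4 differed by 1.11 and AT1G22170 by 1.06, in the other order. DGR2 and AT5G50180 were called without the experiment as a block, and the other 4 were not. All 6 were called with each of the 12 arrays left out in turn.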

How the results depend on the processing

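The count of 735 moved with the error estimate and with the arrays used. No replicate block left 59 called differences (8 higher, 51 lower), 2196 effects at 6 h, 73 at 24 h and 20 lasting effects. With only the 12 arrays at 6 and 24 h there were 57 differences (11 higher, 46 lower), and limma on the 3 within-experiment differences gave 55 (9 and 46), with 1801, 482 and 153 for the other counts. A random block (correlation 0.384) gave 662, median centring 606 (295 higher, 311 lower, against 430 and 305), quantile normalization 797 (496 and 301), leaving out the dimmest probe sets 767, and trend with robust moderation 701. Without the 2 minus Pi arrays of experiment 2 numbered out of run there were 290 (138 and 152), 172 at 24 h and 44 lasting. An interval within 1.5-fold left 145 lasting.

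Leaving out a single array or an experiment gave 16 to 1434 differences (2 to 870 higher, 14 to 564 lower), 2033 to 5536 effects at 6 h, 34 to 1031 at 24 h and 13 to 362 lasting effects. The lowest counts came without experiment 2 (16 differences), and the 2 higher differences were also the count without experiment 1 (45 in all). Single arrays moved the 735 by over 1.5 times in 10 of 12 cases. In experiment 1 these were plus Pi and minus Pi at 6 h (245 and 274) and at 24 h (280 and 224), in experiment 2 the same 4 arrays (483, 487, 179 and 301), and in experiment 3 plus Pi and minus Pi at 6 h (402 and 1434), the latter an array with a second scan per its label. The cause was not tested. No difference among the 735 changed sign in any alternative. Changing the block, the moderation or the dim filter, or using only the 12 arrays or the 3 differences, leaves the difference itself as it is. Without an experiment, the 733 with 1 sign in 3 of 3 experiments could not change sign. Dim values could not be set against background, since no detection calls were used.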

Other observations

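Other nutrient lists had few or no called differences between the times. Of 15 nitrate and ammonium genes, NLP7, a transcription factor gene of nitrate signalling, had a called lower effect at 24 h, from 0.44 to -0.30 (limma adjusted p = 0.0322), a call lost without 9 of the 12 single arrays, and the list median was 0.01. Of 13 sulfate genes 0 were called, with a median difference of -0.39 that was 0.06 in experiment 3 and -1.03 in experiment 2, and -0.64 without the plus Pi array at 24 h of experiment 3. Root aquaporin genes had a median of -0.42 (-0.28 without the minus Pi array at 24 h of experiment 1) with 0 of 7 called, and PIP2;4 was called lower at both times, by -1.37 at 6 h and -2.46 at 24 h. GSTU25 was 1 of 12 tau-class glutathione transferase genes called (median difference -0.19, between -0.29 and -0.09 with single arrays left out), and GSTU28 was lower at both times, by -1.68 and -1.25.

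Of 13 abscisic acid and dehydration genes 0 had a called difference (median -0.14, between -0.40 and -0.09 with single arrays left out). At 6 h 6 of the 13 were called higher, beside 9.34% of all probe sets. RD26, a NAC transcription factor gene, was lasting, with 0.67 and 1.08. The clock list had 0 of 8 called (median -0.11, between -0.28 and 0.04 with single arrays left out). TOC1, an evening clock gene, had Pi effects of 0.19 and 0.12, while its level fell by 1.22 between 6 h and 24 h in plus Pi roots and fell by 1.29 in minus Pi roots. Shoot photosynthesis genes had 0 of 8 called, at a median difference of 0.07 (between -0.06 and 0.34 with single arrays left out), and ferritin genes 0 of 2, at -0.54 (-0.31 without the minus Pi array at 6 h of experiment 3).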
